A study of Rattus norvegicus with 84 samples.

Results

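The livers of 24-month-old male Sprague Dawley rats (an outbred stock) were compared between rats given RAD001 and rats given vehicle. The comparison holds 18 RNA-seq libraries of the 84 in the series, chosen by their labels: 8 from RAD001 livers and 10 from vehicle livers. All of these rats started at 22.5 months of age and were dosed by mouth for 6 weeks. The RAD001 group received the drug once a week, 7 doses in all, with vehicle on the other days, and the vehicle group received vehicle daily. A further 10 libraries from 6-month-old vehicle rats, dosed for the same 6 weeks from 4.5 months, entered the fit and give a level to set beside the aged groups. RNA was total RNA from frozen liver powder. The labels do not say that each library is a separate rat, so p-values measure the spread between libraries.

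RAD001, or everolimus, is a relative of rapamycin and blocks mTORC1, the nutrient-sensing kinase complex. Active mTORC1 promotes ribosome production, translation and lipid synthesis and restrains autophagy, and in liver it takes part in the switch between the fed and the fasted state. When it is restrained, TFEB and TFE3, transcription factors of lysosomal genes, can enter the nucleus. Levels are given as scaled coverage (mean reads over each base of a locus, brought to a common scale across libraries), by the median with the lowest and highest library. Log2 changes are RAD001 minus vehicle on the log2(scaled coverage + 0.1) scale, which understates the change of low genes. Each adjusted p comes from limma, corrected over all tested genes by the Benjamini-Hochberg method, and a gene under 0.05 is called.

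The vehicle livers split on a measure that is no messenger RNA. 7SL, the RNA of the signal recognition particle, had a median deposited coverage of 25801 in RAD001 livers, with a range of 23793 to 27603. It had a median of 21291 in vehicle livers, with a range of 14023 to 27747 (difference of means, exact two-sided permutation test, p = 0.04703, or 0.0588 adjusted over 5 library measures). In 6 of the 10 vehicle libraries, numbers 2, 4, 6, 7, 8 and 9, 7SL lay below the lowest RAD001 library, and in the other 4 it lay within or just above the RAD001 range. The second principal component of the 28 liver libraries, with 15.5% of the variance, ran with 7SL (r = -0.82 on log2 7SL over the 18 aged libraries, given as a description). The ribosomal RNA precursor Rn45s moved the same way, with a median of 414 in RAD001 livers and 344 in vehicle livers (exact two-sided permutation test, p = 0.0143, adjusted p = 0.0238). RAD001 libraries were also deeper, at a median relative depth of 1.08 against 0.944 in vehicle libraries (exact two-sided permutation test, p = 0.01303, adjusted p = 0.0238). Whether 7SL reflects RNA handling or liver state was not tested. Results below are given also with log2 7SL in the model, called the covariate, and against the 4 vehicle libraries of high 7SL alone. The covariate was fitted over all 28 liver libraries, so its slope is shared with the 6-month livers, where 7SL ranged from 11604 to 29562. Covariate results per gene and per list use that fit.

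**Figure D1:**
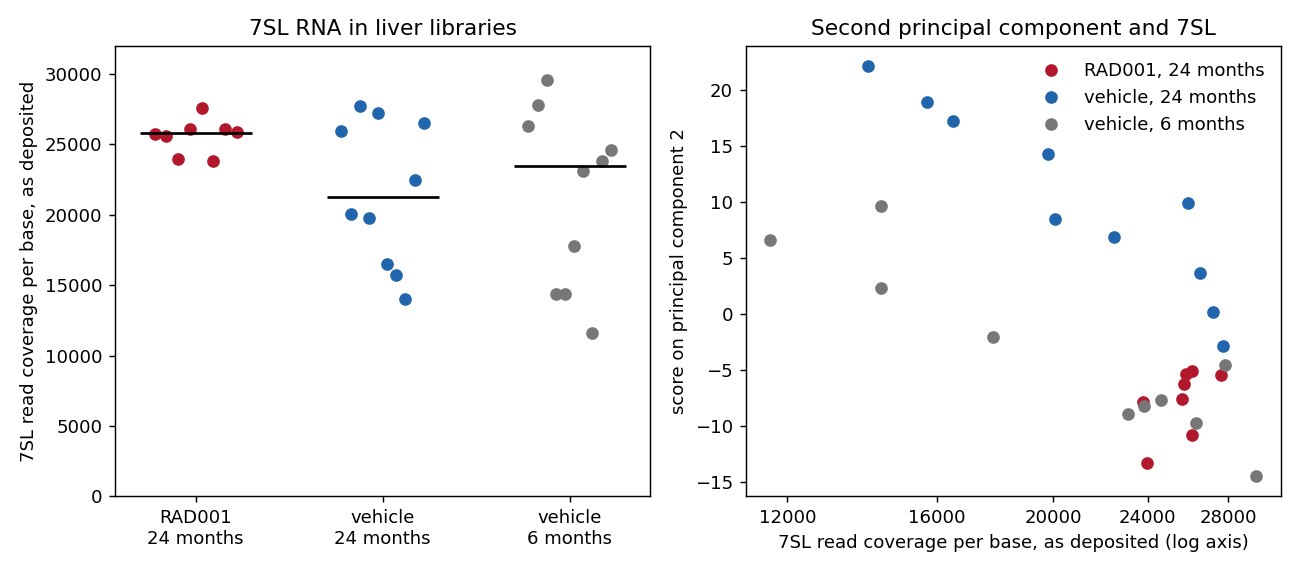
7SL coverage as deposited in each liver library (left, one point per library, horizontal bars at the median) and the second principal component of all liver libraries against 7SL on a log axis (right). RAD001 libraries lie between 23793 and 27603, while vehicle libraries reach down to 14023.

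Of 8991 genes tested, 744 were called higher (8.27%) and 677 lower (7.53%) with RAD001, 15.8% in all. The median log2 change over all genes tested was 0.0076. With 7SL as a covariate 567 genes were called (6.31%), 307 higher (3.41%) and 260 lower (2.89%), and 550 of them were among the 1421. Fitted on the 2 aged groups alone, a setting added after seeing the data, the covariate left 129 genes called (65 higher, 64 lower). Against the 4 vehicle libraries of high 7SL 30 genes were called (0.338%), 13 higher and 17 lower, whereas against the 6 of low 7SL, a comparison added after seeing the data, there were 2315 (25.9%). The 4-library comparison also has fewer samples, and the median SE of the genes called at first was 0.106 there, against 0.0858 with all vehicle libraries. The median size of their log2 change was 0.216 there, 0.2400 with the covariate and 0.309 in the fit of all libraries. For 65 genes (0.723%) the RAD001 and vehicle ranges did not overlap. On the values as deposited, without scaling, 451 genes were higher and 1107 lower, so that 28.9% of the called genes were higher, against 52.4% with scaling. Leaving out each library in turn gave between 944 and 1695 called genes, with the lowest counts without vehicle library 7 (944) and without vehicle library 8 (946). Of the 229 called genes named below, 87 lost their call without some single library, and none of these had an adjusted p under 0.0205 with all libraries. No called change among them moved by more than 1.4 times. In what follows a number in parentheses after a gene's name is its log2 change, given for called genes. Counts per list are followed by those with the 7SL covariate. The shares of all genes to set beside them are 8.27% higher and 7.53% lower, or 3.41% and 2.89% with the covariate. Against the 4 high-7SL vehicle libraries list members were called in few lists: 1 gene of amino acid breakdown, 2 of gluconeogenesis, 2 of lipoproteins and 1 of the acute phase were lower, and 1 complement gene and 1 immediate early gene higher.

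The 30 genes called even against the high-7SL vehicle libraries, a list taken after their values were seen, include enzymes of amino acid and lipid handling, plasma proteins and signalling genes. Sds, on chromosome 12 at 43473323 to 43480635 (rn5, the build of the files), encodes serine dehydratase, which turns serine into pyruvate for gluconeogenesis. It had a median of 0.1605 (0.0295 to 0.852) in RAD001 livers, against 0.979 (0.201 to 2.72) in vehicle livers. The groups overlapped, with RAD001 libraries 5 and 6 above the lowest vehicle library. Its log2 change was -1.95 (SE 0.36, adjusted p = 0.00131), and -2.69 (adjusted p = 0.00247) against the high-7SL vehicle libraries. Dnase2b, an acid DNase, stood at 0.142 (0.0893 to 0.425) in RAD001 livers and 0.985 (0.1405 to 1.72) in vehicle livers, a log2 change of -1.82 (SE 0.32, adjusted p = 0.0007904; -2.20 against the high-7SL libraries, adjusted p = 0.002599). A2m, the protease inhibitor alpha-2-macroglobulin, is listed at 2 loci, which may be one gene, and both fell. At the first locus the level was 0.0874 (0.03101 to 0.132) in RAD001 livers, against 0.359 (0.0392 to 0.963) in vehicle livers (log2 change -1.03, SE 0.29, adjusted p = 0.0182). The vehicle livers were spread widely here, with some as low as the RAD001 livers.

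Lipoprotein and amino group genes made up another share of the 30. Apof, an apolipoprotein that inhibits cholesteryl ester transfer, was at 11.3 (8.804 to 14.8) in RAD001 livers and 18.1 (13.7 to 21.7) in vehicle livers (log2 change -0.65, SE 0.10, adjusted p = 0.000338). Apoa2, an apolipoprotein of high density lipoproteins, was at 71.4 (55.6 to 99.9) in RAD001 livers and 104 (73.3 to 173) in vehicle livers (log2 change -0.50, SE 0.14, adjusted p = 0.0169). Got1, the cytosolic aspartate aminotransferase, was lower in all 8 RAD001 livers (2.11 (1.56 to 2.503)) than in any of the 10 vehicle livers (2.96 (2.57 to 4.07)), with a log2 change of -0.59 (SE 0.11, adjusted p = 0.00146). Sptssa, a small subunit of serine palmitoyltransferase, the first enzyme of sphingolipid synthesis, did not overlap either, at 4.69 (3.99 to 4.84) in RAD001 livers and 7.24 (5.52 to 8.06) in vehicle livers (log2 change -0.62, adjusted p = 0.000295). The polyamine-related acetyltransferase gene Sat2 fell by 0.71 on the log2 scale, the fructosamine kinase Fn3k by 0.65, the lysophospholipase Pnpla7 by 0.45, the glutathione transferase Gstk1 by 0.26, the DNA polymerase delta subunit Pold4 by 0.27 and Tpd52l1 by 0.54. N4bp2l1 (-0.37) and RGD1310507 (-0.33) completed the lower side with Flcn, which is described with the lysosomal genes.

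On the higher side the clearest was Ptms, parathymosin, a small acidic nuclear protein. It lies on chromosome 4 at 224453138 to 224457327 (rn5). Its level was 6.48 (5.88 to 7.22) in RAD001 livers, against 3.82 (3.36 to 5.52) in vehicle livers, without overlap (log2 change 0.65, SE 0.076, adjusted p = 1.74e-05, the smallest of all genes tested). Clu, the secreted chaperone clusterin, was at 25.01 (23.1 to 28.9) in RAD001 livers and 18.5 (13.8 to 21.7) in vehicle livers, again without overlap (log2 change 0.50, SE 0.08, adjusted p = 0.0003497). Rara, the retinoic acid receptor alpha, was at 0.533 (0.4599 to 0.624) in RAD001 livers and 0.354 (0.235 to 0.459) in vehicle livers, also without overlap (log2 change 0.53, adjusted p = 0.000338). Signalling genes were among the rest: Prkaca, a catalytic subunit of protein kinase A, rose by 0.33, Csk, the kinase that restrains Src family kinases, by 0.34, Rhob, a small GTPase, by 0.75 and Nos1ap, an adaptor of neuronal nitric oxide synthase, by 0.57 on the log2 scale. Jade2 (0.65), Crip2 (0.62), Tcea3 (0.52), Tmem252 (0.48) and Tmcc3 (0.44) also rose. Slc10a2, the apical bile acid transporter, was the one of the 30 not called with all vehicle libraries (log2 change 0.35, adjusted p = 0.0501), and against the high-7SL libraries it stood at 0.58 (adjusted p = 0.04200).

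**Figure D2:**
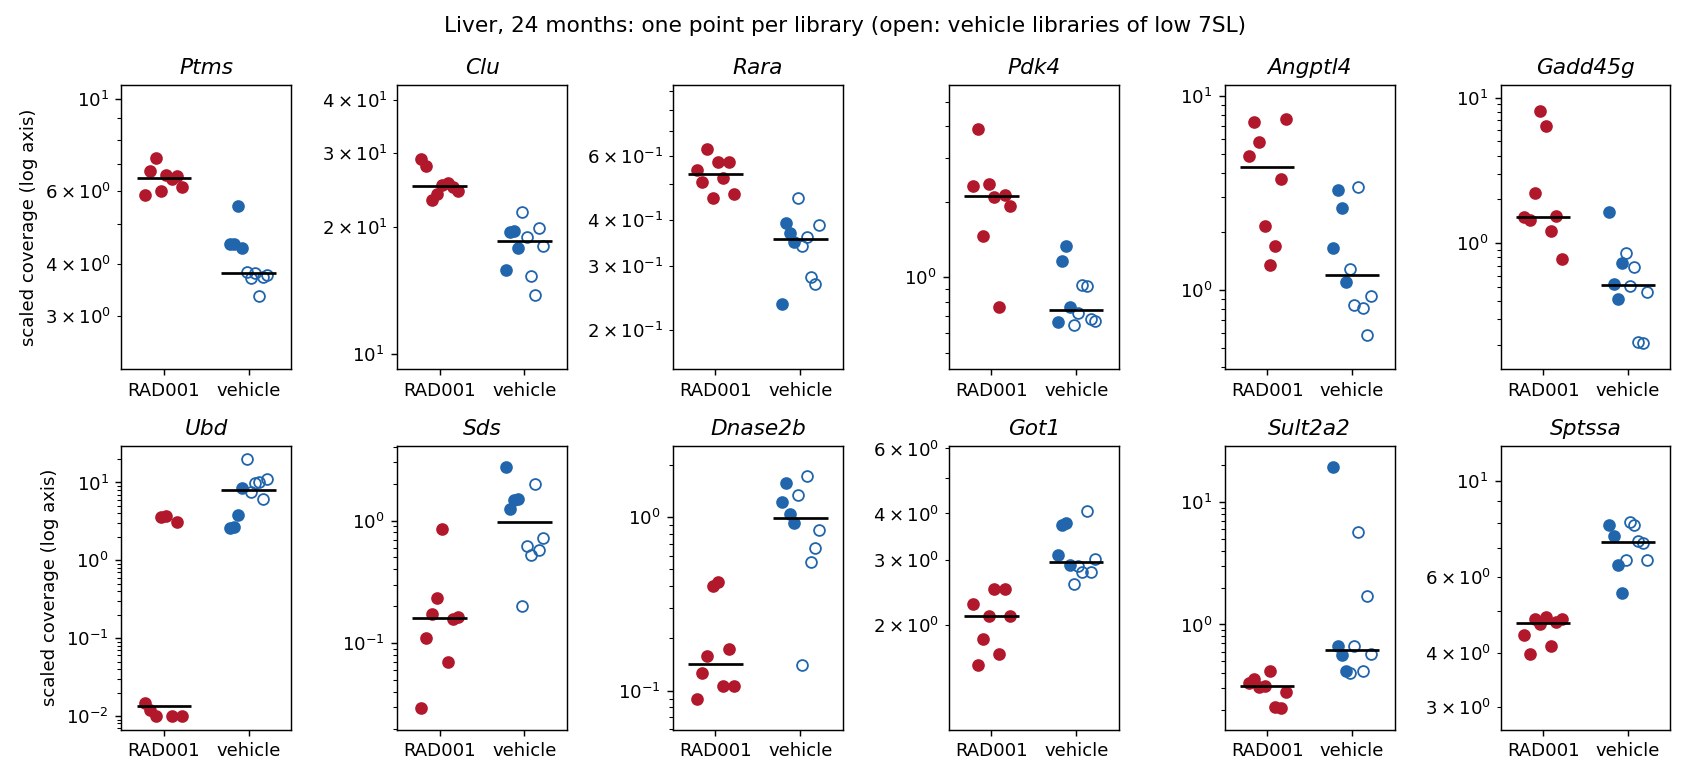
Scaled coverage of 12 genes in each library on a log axis, RAD001 left and 24-month vehicle right, with vehicle libraries of low 7SL as open circles and horizontal bars at the medians; values under 0.01 are drawn at 0.01. Ptms, Clu, Rara, Got1 and Sptssa separate the groups fully, while Ubd is near 0 in 5 of the 8 RAD001 libraries.

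The largest change among genes with a mean level of at least 1 was in Ubd, which encodes FAT10, a ubiquitin-like modifier known to be induced by interferon gamma and tumour necrosis factor. Ubd lies on chromosome 20 at 3917780 to 3919728 (rn5, as the files give it). Its promoter, from 250 bases before to 50 after the transcription start in RefSeq's GRCr8 table (chromosome 20, 1392636 to 1392935, minus strand), is shown because Ubd fell more than any other gene. The capitals mark the bases from the transcription start on.
Ubd: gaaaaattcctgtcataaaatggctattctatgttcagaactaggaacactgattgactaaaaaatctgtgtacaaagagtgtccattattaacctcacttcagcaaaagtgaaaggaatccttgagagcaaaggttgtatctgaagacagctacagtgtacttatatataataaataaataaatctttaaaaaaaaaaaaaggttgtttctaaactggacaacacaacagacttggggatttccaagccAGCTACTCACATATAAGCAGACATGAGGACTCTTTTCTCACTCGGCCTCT

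Ubd coverage was 0.0134 (0 to 3.74) in RAD001 livers, against 8.06 (2.63 to 19.8) in vehicle livers (log2 change -4.13, SE 0.73, adjusted p = 0.000891; -3.99 with 7SL as a covariate, adjusted p = 0.00352). The RAD001 livers were not uniform. Libraries 1, 2, 3, 7 and 9 had 0.0148, 0.0120, 0, 0 and 0.00894, while libraries 5, 6 and 8 had 3.58, 3.74 and 3.10. Every vehicle liver was above 2.6, so the 3 RAD001 livers with signal lay within the lower part of the vehicle range. The same numbers stood apart in the other organs: in kidney RAD001 libraries 5, 6 and 8 had 1.85, 1.08 and 1.18 and the other 5 were at most 0.0843, and in gastrocnemius the same 3 had 0.152, 0.193 and 0.190 and the other 5 at most 0.0543. A value under 0.1 also occurred without the drug, in vehicle library 10 of the 6-month rats, at 0.0601 in liver and 0.0231 in kidney. No 24-month vehicle liver or kidney was under 0.1. In gastrocnemius, where Ubd was low throughout, 1 of 10 vehicle libraries at 24 months (0.0984) and 5 of 10 at 6 months were under it. Against the 4 high-7SL vehicle livers Ubd did not pass (log2 change -3.32, adjusted p = 0.1703). The labels do not say that equal numbers mark one rat, and what sets the 5 libraries apart was not tested.

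**Figure D3:**
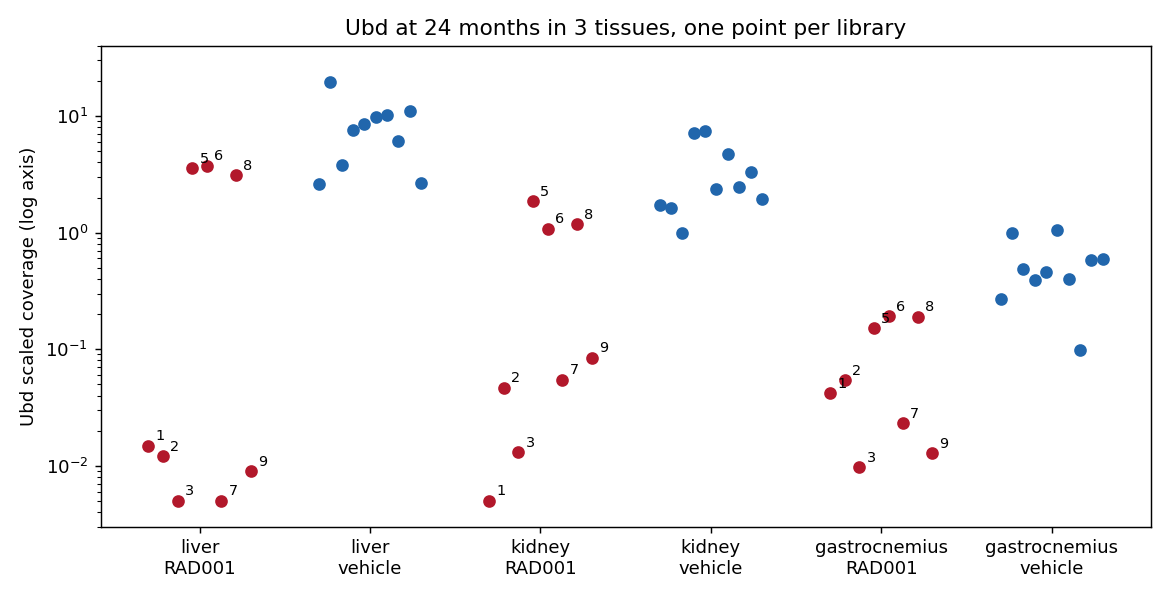
Ubd coverage, scaled within tissue, in each RAD001 and 24-month vehicle library of liver, kidney and gastrocnemius on a log axis, with library numbers beside the RAD001 points and values under 0.005 drawn at 0.005. Libraries 5, 6 and 8 are the 3 highest RAD001 libraries in all 3 tissues.

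Sulfotransferases and aldo-keto reductases made up most of the other large falls. Sult2a1, Sult2a2 and Sult2a6 are hydroxysteroid sulfotransferases, and in rats this family is higher in female than in male liver. Sult2a1 coverage was 21.2 (14.7 to 48.00) in RAD001 livers and 41.5 (17.7 to 120.0) in vehicle livers (log2 change -0.98, SE 0.30, adjusted p = 0.02903). Sult2a6 was at 18.8 (11.4 to 26.97) in RAD001 livers and 34.5 (23.7 to 70.7) in vehicle livers (log2 change -1.04, SE 0.33, adjusted p = 0.0312). Sult2a2 was at 0.313 (0.207 to 0.416) in RAD001 livers and 0.6203 (0.3998 to 19.2) in vehicle livers (log2 change -1.61, SE 0.49, adjusted p = 0.0256). A single vehicle liver, library 1, carried the highest value of all 3 genes, and library 6 was next for each. Akr1b7, an aldo-keto reductase of the same female-typical kind, followed this pattern, at 0.853 (0.344 to 2.39) in RAD001 livers and 1.83 (0.737 to 10.9) in vehicle livers (log2 change -1.24, adjusted p = 0.02698). Without vehicle library 6 the calls of Sult2a1, Sult2a6 and Akr1b7 were lost (adjusted p = 0.0561, 0.0580 and 0.0532), and the adjusted p of each also passed 0.05 without some other single libraries, at up to 0.0662. With 7SL as a covariate none of these 4 passed (adjusted p = 0.112, 0.1105, 0.0798 and 0.0906), with log2 changes of -0.80, -0.89, -1.50 and -1.10, in the order Sult2a1, Sult2a6, Sult2a2, Akr1b7.

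The Sult2a genes are close copies, so reads may be shared between them and their separate values are uncertain. The promoters of Sult2a1 (GRCr8 chromosome 1, 84638898 to 84639197, minus strand) and Sult2a6 (chromosome 1, 84097759 to 84098058, minus strand) are shown to make this likeness visible, with capitals at the 8 of 300 bases where they differ when aligned from end to end without gaps (97.3% the same).
Sult2a1: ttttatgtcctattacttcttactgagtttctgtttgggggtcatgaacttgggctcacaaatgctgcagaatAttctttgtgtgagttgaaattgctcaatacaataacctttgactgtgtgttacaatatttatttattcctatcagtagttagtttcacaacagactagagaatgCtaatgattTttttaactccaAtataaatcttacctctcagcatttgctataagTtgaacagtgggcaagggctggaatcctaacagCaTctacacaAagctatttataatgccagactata
Sult2a6: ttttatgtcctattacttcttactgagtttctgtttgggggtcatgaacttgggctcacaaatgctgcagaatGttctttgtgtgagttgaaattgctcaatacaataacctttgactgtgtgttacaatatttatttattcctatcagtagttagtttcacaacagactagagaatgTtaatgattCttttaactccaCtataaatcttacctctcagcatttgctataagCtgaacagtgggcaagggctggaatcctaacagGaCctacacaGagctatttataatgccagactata
Vehicle library 1 was highest and library 6 next for both genes, but other libraries did not keep one order. RAD001 library 3 was the highest RAD001 library for Sult2a1 (48.0) but not for Sult2a6 (17.4). Vehicle library 8 stood at 33.4 for Sult2a1 and 54.2 for Sult2a6, and vehicle library 7 at 77.0 and 34.6.

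The growth hormone list joins genes known in rats to follow the sex-specific pattern of its secretion with genes of its signalling. Of the 33 tested, 7 were higher (21.2%) and 5 lower (15.2%) with RAD001, against 8.27% and 7.53% of all genes. Their median log2 change was 0.24, over male-typical and female-typical genes together. The higher ones were Hao2, a peroxisomal hydroxyacid oxidase typical of male liver (0.82), Cyp2d4 (0.46), LOC298111 (0.85), the signal transducers Stat5b (0.40) and Stat5a (0.26), and the feedback inhibitors Socs2 (1.11) and Socs3 (0.93). Hao2 coverage was 8.56 (7.43 to 17.2) in RAD001 livers, against 5.99 (2.099 to 8.82) in vehicle livers, and 36.2 ± 9.597 (SD, n = 10) in 6-month vehicle livers (24-month change: SE 0.23, adjusted p = 0.0168). The lower ones were Sult2a1, Akr1b7, Akr1c1 (-0.64), the steroid 17-hydroxylase Cyp17a1 (-0.70) and Ghr, the growth hormone receptor (-0.27). With the 7SL covariate 3 stayed called, Hao2, Cyp2d4 and Stat5b, and none on the lower side. Cyp2c11, the main male-specific cytochrome P450 of rat liver, had 49.2 (26.6 to 87.6) in RAD001 livers and 41.7 (9.24 to 59.6) in vehicle livers and did not pass (log2 change 0.64, SE 0.29, adjusted p = 0.133).

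Several of the largest rises were in genes that fasting is known to induce in liver. Pdk4, the kinase that switches off pyruvate dehydrogenase and spares glucose, was at 2.11 (0.759 to 3.91) in RAD001 livers and 0.741 (0.646 to 1.33) in vehicle livers. RAD001 library 7 lay within the vehicle range and the other 7 lay above every vehicle liver. The log2 change was 1.15 (SE 0.20, adjusted p = 0.000702), and 1.16 with the covariate (adjusted p = 0.00174). Angptl4, a secreted inhibitor of lipoprotein lipase, was at 4.31 (1.34 to 7.598) in RAD001 livers and 1.19 (0.589 to 3.39) in vehicle livers (log2 change 1.32, SE 0.37, adjusted p = 0.0187). Fgf21, the hepatic fasting hormone, was at 2.12 (0.7505 to 4.73) in RAD001 livers and 1.07 (0.571 to 1.95) in vehicle livers (log2 change 0.91, SE 0.27, adjusted p = 0.0225). For both the groups overlapped, and neither passed with the covariate (adjusted p = 0.0843 for Angptl4 and 0.0702 for Fgf21). Without RAD001 library 3 the change of Fgf21 also missed the threshold (adjusted p = 0.0594). Cebpb, a transcription factor of gluconeogenic and acute phase genes, was at 2.67 (1.97 to 3.39) in RAD001 livers and 1.41 (0.523 to 2.45) in vehicle livers (log2 change 1.08, SE 0.27, adjusted p = 0.0102). Its 4 highest vehicle libraries were the 4 of high 7SL, against which the change was 0.39 (adjusted p = 0.577).

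Slc25a47, a mitochondrial carrier of liver, rose by 0.83 (adjusted p = 0.0301; 0.134 with the covariate). Paqr7, a membrane progestin receptor, rose by 0.95 (adjusted p = 0.00322) and kept its call with the covariate (adjusted p = 0.0144). Of 46 tested genes of fatty acid oxidation and ketogenesis 5 were higher (10.9%, against 8.27% of all genes) and 1 lower, with a median log2 change of 0.059 (2 higher and 1 lower with the covariate). Among them, besides Pdk4, Angptl4 and Fgf21, was Crat, carnitine acetyltransferase (0.63). Cyp4a8, a fatty acid hydroxylase, fell by 0.79 (adjusted p = 0.00862).

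In the gluconeogenesis and fasting list 5 of 30 genes were higher and 5 lower, each 16.7% (1 and 4 with the covariate). Cebpb, Cebpa (0.37), the glucagon receptor Gcgr (0.31), the insulin receptor substrate Irs2 (0.57) and pyruvate carboxylase, Pc (0.29), were higher. Sds, Got1, Mdh1 (-0.42), Tat (-0.40) and Tdo2 (-0.43), all enzymes that feed amino acid carbon or reducing power into the pathway, were lower. The rate-setting enzymes did not pass: Pck1 stood at 29.3 (15.8 to 43.9) in RAD001 livers and 23.8 (10.2 to 31.3) in vehicle livers (log2 change 0.41, SE 0.24, adjusted p = 0.232), and G6pc at 11.6 (4.002 to 22.1) in RAD001 livers and 5.72 (1.97 to 11.7) in vehicle livers (log2 change 0.85, SE 0.33, adjusted p = 0.0742). Igfbp1, a fasting-responsive binding protein of insulin-like growth factors, did not pass either, at 0.61 (SE 0.37, adjusted p = 0.249). In glycolysis and glycogen metabolism 3 of 36 genes fell (8.33%, near the 7.53% of all genes) and none rose (2 fell with the covariate). Pfkfb1, the liver enzyme that makes and breaks the glycolytic activator fructose 2,6-bisphosphate, was lower in every RAD001 liver (0.581 (0.392 to 0.7895)) than in any vehicle liver (1.09 (0.866 to 2.37)), with a log2 change of -0.88 (SE 0.20, adjusted p = 0.00546; 0.0147 with the covariate). Pdha1, a subunit of pyruvate dehydrogenase, fell by 0.30 and Ugp2, which makes the glycogen precursor, by 0.63.

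Among genes of the urea cycle and amino acid breakdown calls were on the lower side only. Of 49 tested, 12 were lower (24.5%, against 7.53% of all genes) and none higher, with a median log2 change of -0.12. The urea cycle enzymes were Cps1 (-0.33), Otc (-0.47), Ass1 (-0.43) and Arg1 (-0.53). Arg1, which releases urea, was at 45.8 (36.9 to 74.8) in RAD001 livers and 72.97 (56.2 to 96.5) in vehicle livers (SE 0.11, adjusted p = 0.00451; 0.0176 with the covariate). The others were Sds, the liver glutaminase Gls2 (-0.36), the methionine adenosyltransferase Mat1a (-0.42), the tyrosine aminotransferase Tat, the tryptophan dioxygenase Tdo2, and Mccc1 (-0.32), Bckdhb (-0.30) and Pcca (-0.19), enzymes of branched-chain amino acid breakdown. With 7SL as a covariate 9 of the 12 stayed called and Asl, argininosuccinate lyase of the urea cycle, was called as well, 10 in all (20.4% of the list, against 2.89% of all genes). Cps1, Tdo2 and Pcca then stood at adjusted p = 0.0822, 0.125 and 0.0843. Only Sds passed against the high-7SL vehicle libraries, where the median of the list was -0.21.

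The endoplasmic reticulum list joins folding factors with genes of protein entry and stress sensors. Of its 41 tested genes 12 were lower (29.3%, against 7.53% of all genes) and 1 higher, with a median log2 change of -0.17. Hsp90b1, the reticulum's Hsp90, was at 6.796 (5.36 to 6.98) in RAD001 livers and 9.13 (6.54 to 13.2) in vehicle livers (log2 change -0.56, SE 0.12, adjusted p = 0.00521). Hspa5, also called BiP, fell by 0.31, the lectin chaperone Canx by 0.34, the co-chaperone Dnajb9 by 0.47 and the disulfide isomerases Pdia4 and Pdia6 by 0.26 and 0.18. Genes of entry into the reticulum were among the same 12. Srp54a, a protein of the particle that contains 7SL, fell by 0.37. The translocon-associated Ssr1 and Ssr3 fell by 0.26 and 0.35, and the signal peptidase subunits Spcs1 and Spcs3 by 0.18 and 0.37. The stress sensor Eif2ak3 (PERK) fell by 0.23, while the sensor Ern1 (IRE1 alpha) rose by 0.40 (adjusted p = 0.0107). With the covariate 7 lower calls remained of the list's members. None passed against the high-7SL libraries.

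Cytosolic and mitochondrial heat shock genes went the same way. Of 19 tested, 5 were lower (26.3%, against 7.53% of all genes) and 1 higher (3 and 0 with the covariate). Hspd1, the mitochondrial chaperonin, was at 4.53 (4.42 to 5.55) in RAD001 livers and 6.195 (5.34 to 7.39) in vehicle livers (log2 change -0.41, adjusted p = 0.00167). Its partner Hspe1 fell by 0.27, Hspa8 by 0.47, Dnaja1 by 0.37 and the Hsp90 co-chaperone Chordc1 by 0.53, while the co-chaperone Bag3 rose by 0.26. Alb, albumin, the main product of the secretory route in liver, was at 2849 (2338 to 4157) in RAD001 livers and 4702 (2566 to 5710) in vehicle livers (log2 change -0.50, SE 0.14, adjusted p = 0.01797; 0.0263 with the covariate).

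ATF4, the transcription factor of amino acid shortage, is known to be raised in translation by active mTORC1, and its targets include the transfer RNA synthetases. In that list 4 of 37 genes were higher (10.8%) and 1 lower, against 3 and 3 on the values as deposited, and the median log2 change was 0.020. Besides Cebpb and Fgf21, Atf5, a related transcription factor, rose by 0.44 (adjusted p = 0.0157) and Shmt2, the mitochondrial serine hydroxymethyltransferase, by 0.28 (adjusted p = 0.0441). Dars, the aspartyl-tRNA synthetase, fell by 0.26 (adjusted p = 0.0263). With the covariate Cebpb alone stayed called (adjusted p = 0.0123).

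Messenger RNAs of mTORC1 itself and of its best known substrates did not pass. Mtor stood at 0.588 (0.442 to 0.678) in RAD001 livers and 0.565 (0.448 to 0.656) in vehicle livers (log2 change 0.049, SE 0.064), Rptor, the scaffold of mTORC1, at 0.068 (SE 0.069), Rps6kb1, the S6 kinase, at -0.11 (SE 0.07) and the translation repressor Eif4ebp1 at 0.12 (SE 0.10) on the log2 scale. Fkbp1a, the protein that RAD001 binds to reach mTOR, was at 4.33 (3.89 to 5.11) in RAD001 livers and 3.92 (3.603 to 4.42) in vehicle livers (log2 change 0.16, SE 0.058, adjusted p = 0.0562). RNA levels say nothing of phosphorylation, the level at which the drug acts. Of 36 tested genes of the pathway 4 were higher (11.1%) and 1 lower (2.78%). The higher ones were the autophagy kinase Ulk1 (0.37), Irs2, Rps6kb2 (0.21) and Akt1s1 (0.27). The lower one was the amino acid sensing GTPase Rragc (-0.23). None of these 5 stayed called with the covariate.

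Genes of the translation machinery were called in both directions. Cytosolic ribosomal protein genes were higher in 7 of 78 cases (8.97%, near the 8.27% of all genes) and lower in 2 (2 and 1 with the covariate). Rpl8 was the clearest, at 0.749 (0.7005 to 0.868) in RAD001 livers and 0.4698 (0.317 to 0.661) in vehicle livers without overlap (log2 change 0.61, SE 0.09, adjusted p = 0.000324), and Rpl7a rose by 0.46. Rpl22l1, a ribosomal protein paralogue, went down by 0.64 (adjusted p = 0.00122) and Rps24 by 0.28. Ribosomal protein genes have many processed pseudogenes, which can take or lend reads. Among translation factors 5 of 45 were higher (11.1%) and 6 lower (13.3%), both shares above those of all genes (8.27% and 7.53%), and 4 (8.89%) and 3 (6.67%) with the covariate. The elongation factors Eef2 (0.32) and Eef1g (0.25), the messenger-binding Pabpc1 (0.22), Eif3f (0.37) and Eif2b4 (0.26) rose, while the initiation factors Eif2s1 (-0.40), Eif1ax (-0.39), Eif5 (-0.35), Eif4a2 (-0.33), Eif3j (-0.29) and Eif2a (-0.18) fell.

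Ribosome biogenesis genes were higher in 3 (4.92%) and lower in 4 (6.56%) of 61 cases, both below the shares of all genes. Their median log2 change was -0.015 (2 and 2 called with the covariate). Ncl, nucleolin, was at 0.543 (0.438 to 0.611) in RAD001 livers and 0.745 (0.477 to 0.926) in vehicle livers (log2 change -0.36, SE 0.083, adjusted p = 0.00643), and Npm1 (-0.36), Rpf2 (-0.30) and Ebna1bp2 (-0.24) fell too. Dkc1, dyskerin (0.56), Gltscr2 (0.34) and Myc (0.57) rose. Myc, the transcription factor that drives ribosome genes, was at 0.2701 (0.155 to 0.595) in RAD001 livers and 0.163 (0.0983 to 0.228) in vehicle livers (SE 0.17, adjusted p = 0.0242; 0.0701 with the covariate, 0.0599 without RAD001 library 5 and 0.0528 without RAD001 library 6). The ribosomal RNA locus Rn28s, present in many near-identical copies, was at 435 (366 to 504) in RAD001 livers and 241 (111 to 479.9) in vehicle livers (log2 change 0.86, adjusted p = 0.0315), and its change shrank to 0.17 (adjusted p = 0.8596) against the high-7SL vehicle libraries. Mitochondrial ribosomal protein genes were lower in 11 of 70 cases (15.7%) and higher in 2, with Mrps31 (-0.32) and Mrps22 (-0.36) falling and Mrpl52 (0.24) and Mrpl43 (0.30) rising, and 4 lower calls remained with the covariate.

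**Figure D4:**
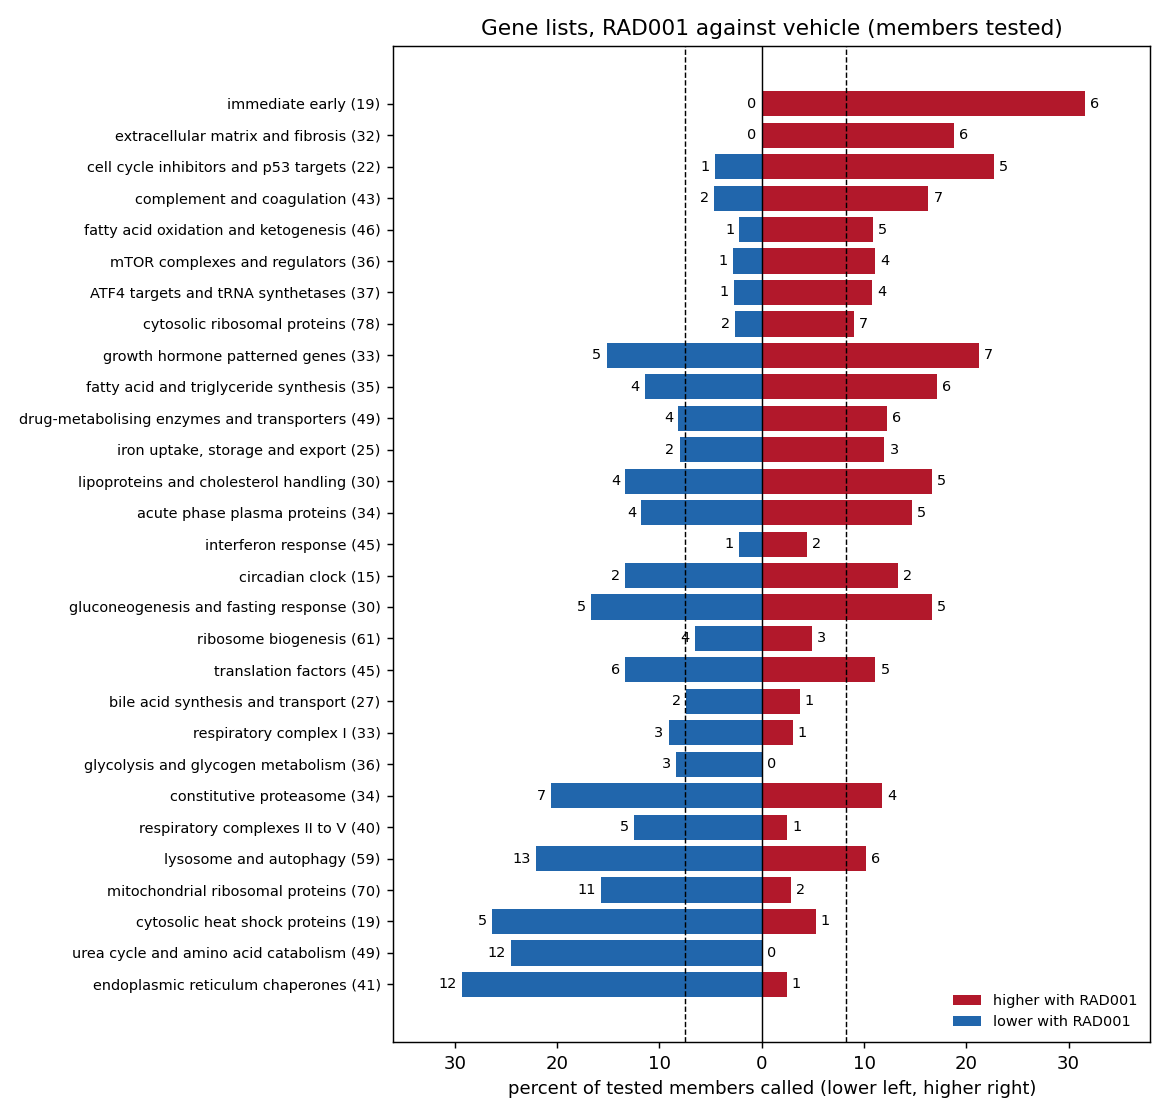
Members called higher (right of 0) and lower (left of 0) with RAD001, as a percentage of the members tested, with the counts beside the bars. Only pathway lists with at least 3 called members are drawn, and cell type markers are left out. Dashed lines mark the share of all tested genes called higher (8.27%) and lower (7.53%). The lists of reticulum chaperones, which also holds entry genes and stress sensors (29.3%), cytosolic heat shock proteins (26.3%) and amino acid breakdown (24.5%) stand furthest to the left.

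Lysosomal and autophagy genes were called in both directions. Of 59 tested, 13 were lower (22.03%, against 7.53% of all genes) and 6 higher (10.17%, near the 8.27% of all genes). Hydrolases, membrane proteins and proton pump subunits were among the lower ones. Ctsl, cathepsin L, was at 32.2 (23.95 to 39.6) in RAD001 livers and 42.03 (31.2 to 50.9) in vehicle livers. The cathepsins Ctsl (-0.39) and Ctsd (-0.22), the lipase Lipa (-0.36), the glycosidases Gusb (-0.22), Glb1 (-0.21) and Gaa (-0.28), and the membrane protein Lamp2 (-0.25) fell. So did Atp6v1e1 (-0.28), Atp6v1c1 (-0.30), Atp6v1h (-0.28) and Atp6v1a (-0.25), all subunits of the cytosolic sector of the proton pump, and Atg3, an autophagy conjugation enzyme (-0.28). The higher ones act early in autophagosome formation or control it: the kinase Ulk1, the membrane carrier Atg9a (0.34), the phosphoinositide-binding Wipi1 (0.28) and Wipi2 (0.32), Map1lc3a, a form of LC3 (0.47), and the transcription factor Tfe3 (0.23). With the covariate 7 stayed lower, among them Atp6v1e1, Atp6v1c1, Atp6v1h, Ctsl, Ctsd and Gaa, and 3 stayed higher, Atg9a, Map1lc3a and Tfe3. Sqstm1, the autophagy receptor p62, did not pass (0.20, SE 0.12).

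Flcn and Fnip1, which form the folliculin complex that lets mTORC1 reach TFEB and TFE3, were both lower. Flcn was at 0.541 (0.382 to 0.609) in RAD001 livers and 0.654 (0.516 to 0.804) in vehicle livers (log2 change -0.28, SE 0.079, adjusted p = 0.01702; -0.43 against the high-7SL libraries, adjusted p = 0.0468). Fnip1, named after its values were seen, was at 0.4404 (0.3497 to 0.5098) in RAD001 livers and 0.699 (0.627 to 0.908) in vehicle livers (log2 change -0.61, SE 0.094, adjusted p = 0.000338). Unlike Flcn, Fnip1 was not among the 30 genes called against the high-7SL libraries. Bnip3, a mitochondrial receptor for autophagy, was at 1.51 (1.09 to 2.04) in RAD001 livers and 2.62 (1.91 to 3.33) in vehicle livers (log2 change -0.72, adjusted p = 0.000368; 0.000975 with the covariate).

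Immediate early genes were higher in 6 of 19 cases (31.6%) and lower in none, with a median log2 change of 0.36. Jund, a subunit of the transcription factor AP-1, was at 3.86 (2.43 to 4.995) in RAD001 livers and 2.06 (0.972 to 3.49) in vehicle livers (log2 change 0.95, SE 0.26, adjusted p = 0.0149). Rhob (0.75), Ier5 (0.49), Ier2 (0.54), Jun (0.70) and Myc were the others, and Rhob, Ier5 and Jund stayed called with the covariate. Among cell cycle inhibitors and p53 targets 5 of 22 were higher (22.7%) and 1 lower (2 and 0 with the covariate). Gadd45g, a stress-inducible growth arrest gene, had the largest rise among genes with a mean of at least 1. It was at 1.52 (0.776 to 8.15) in RAD001 livers and 0.5196 (0.206 to 1.64) in vehicle livers, and RAD001 libraries 5 and 6, at 8.15 and 6.42, stood well above the other 6. Its log2 change was 1.79 (SE 0.43, adjusted p = 0.00916; 0.0194 with the covariate). Cdkn1a, the inhibitor p21, was at 1.300 (0.816 to 1.899) in RAD001 livers and 0.761 (0.365 to 1.42) in vehicle livers (log2 change 0.71, adjusted p = 0.0163; 0.0732 with the covariate). Phlda3 rose by 0.74, Aen by 0.37 and Bbc3 by 0.35, while Tp53inp1 fell by 0.25 (adjusted p = 0.04995). Proliferation genes were mostly below the filter, with 10 of 32 tested. Of these Rrm1, the large subunit of ribonucleotide reductase, was at 0.308 (0.282 to 0.375) in RAD001 livers and 0.425 (0.350 to 0.480) in vehicle livers (-0.34, adjusted p = 0.00154, and 0.00501 with the covariate), and the replicative helicase subunit Mcm7 rose by 0.25 (adjusted p = 0.0497).

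Plasma protein genes were split. Complement and coagulation genes were higher in 7 of 43 cases (16.3%) and lower in 2 (3 and 0 with the covariate), against 3 higher and 3 lower on the values as deposited. The higher ones were Clu, the adhesive glycoprotein Vtn (0.33), the C1 inhibitor Serping1 (0.40), F12 (0.35), C2 (0.24), Masp1 (0.27) and Proc (0.24), and the lower ones the thrombin inhibitor Serpind1 (-0.30) and F13b (-0.30). Acute phase genes were higher in 5 of 34 cases (14.7%) and lower in 4 (11.8%), or 1 and 2 with the covariate. The haemoglobin-binding Hp was at 1045 (579 to 1246) in RAD001 livers and 653 (535 to 1054) in vehicle livers (log2 change 0.45, adjusted p = 0.0319; 0.0662 with the covariate, and 0.0533 to 0.0711 without each of 6 single libraries), and Crp (0.28), Cebpd (0.41), Socs3 and Hamp rose too. Hamp, the iron hormone hepcidin, was at 49.98 (41.98 to 72.9) in RAD001 livers and 38.2 (13.5 to 50.98) in vehicle livers (log2 change 0.66, SE 0.22, adjusted p = 0.0368; 0.162 with the covariate, and 0.0612 to 0.0723 without each of 6 single libraries). Alb, A2m, the interleukin 6 receptor Il6r (-0.45) and Serpina3m (-0.37) fell.

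In the iron list 3 of 25 genes were higher, Hamp, Hp and the iron sensor Tfr2 (0.35), and the iron exporter Slc40a1, ferroportin (-0.35, adjusted p = 0.00828), and Fbxl5 (-0.18) were lower. With the covariate Slc40a1 alone stayed called. Tfrc, the transferrin receptor, did not pass at -0.42 (SE 0.15, adjusted p = 0.0514). Lipoprotein genes were higher in 5 of 30 cases (16.7%) and lower in 4 (13.3%), or 2 and 3 with the covariate. Lrp1, a remnant receptor (0.58), the phospholipid transfer protein Pltp (0.53), Apoa5 (0.43), Nr1h2 (0.38) and Angptl4 were higher. Apof, Apoa2, Lipa and Mttp, which loads lipid onto apolipoprotein B (-0.32), were lower. Of 32 tested matrix genes 6 were called higher (18.8%) and none lower. Their median log2 change was 0.022, near the 0.0076 of all genes. Fn1, fibronectin, was the clearest, at 12.03 (9.27 to 15.9) in RAD001 livers and 8.31 (7.23 to 9.78) in vehicle livers (log2 change 0.47, adjusted p = 0.000736; 0.00244 with the covariate). The others were Col18a1 (0.32), Lamb2 (0.30), Col5a1 (0.30), Bgn (0.31) and Col6a2 (0.29), and 3 of the 6 stayed called with the covariate.

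Lipid synthesis showed no common direction. Of 35 genes of fatty acid and triglyceride synthesis 6 were higher (17.1%) and 4 lower (11.4%). The lipid droplet protein Plin2 (0.70), the triglyceride lipase Pnpla2 (0.37) and the desaturases Fads1 (0.36) and Fads2 (0.54) rose. So did the citrate carrier Slc25a1 (0.32) and the carbohydrate response factor Mlxipl (0.29). The acyltransferase Dgat2 (-0.44), Lpin2 (-0.55), Elovl2 (-0.43) and Mttp were the 4 lower, and 2 each way stayed called with the covariate. Fasn, fatty acid synthase, was at 18.3 (11.5 to 31.1) in RAD001 livers and 16.8 (8.504 to 25.5) in vehicle livers and did not pass (log2 change 0.23, SE 0.27), nor did its regulator Srebf1 (0.074, SE 0.19). In sterol synthesis the regulator Srebf2 (0.42) was the 1 gene called of 28. Cyp7a1, the rate-limiting enzyme of bile acid synthesis, had 1.76 (0.261 to 3.47) in RAD001 livers and 4.64 (0.775 to 18.4) in vehicle livers, and its log2 change of -1.36 (SE 0.49) did not pass (adjusted p = 0.0532). Igf1 was at 14.5 (12.3 to 18.1) in RAD001 livers and 13.7 (11.4 to 17.7) in vehicle livers (log2 change 0.076, SE 0.084), and Gdf15, a stress hormone, was at 0.73 (SE 0.26, adjusted p = 0.0539).

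Genes of drug metabolism were higher in 6 of 49 cases (12.2%) and lower in 4 (8.16%), or 4 and 2 with the covariate. The cytochromes P450 Cyp2d1 (0.58), Cyp2d5 (0.44), Cyp2d4 and Cyp3a9 (0.84), the export pump Abcb1b (0.71) and the transferase Gstm2 (0.34) rose. The Cyp2d genes are close copies whose reads may be shared. Sult1b1, a thyroid hormone and phenol sulfotransferase, was at 14.9 (12.98 to 16.3) in RAD001 livers and 26.4 (17.5 to 29.2) in vehicle livers without overlap (log2 change -0.69, SE 0.12, adjusted p = 0.000515; 0.000868 with the covariate), and Sult1a1 (-0.40), Cyp2c6v1 (-0.44) and Sult2a1 fell. Aadac, a microsomal esterase, was at 1.01 (0.785 to 1.81) in RAD001 livers and 1.93 (1.14 to 2.902) in vehicle livers (log2 change -0.75, adjusted p = 0.00267; 0.00918 with the covariate). Of 27 bile acid genes 1 was higher (3.70%) and 2 lower (7.41%), near or below the shares of all genes. These were the receptor Fgfr4 (0.32), higher, and the uptake transporter Slco1b2 (-0.51) and Akr1c14 (-0.56), lower, none called with the covariate.

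In the respiratory chain, complexes II to V were lower in 5 of 40 cases (12.5%) and higher in 1. Complex I was lower in 3 of 33 cases (9.09%, near the 7.53% of all genes) and higher in 1. With the covariate 2 and 1 were lower and none higher, and the 2 were Atp5f1, called in both fits, and Atp5g1, called only with it. The ATP synthase subunit Atp5f1 fell by 0.31 (adjusted p = 0.00828), Uqcrc2 by 0.27 and the complex I subunits Ndufs3 and Ndufv2 by 0.23 and 0.28, while Uqcrq (0.33) and Ndufb10 (0.22) rose. The proteasome had 7 of 34 genes lower (20.6%), such as Psmc6 (-0.37) and Psmd14 (-0.34), and 4 higher, Adrm1 (0.31), Psmd3 (0.27), Psmd8 (0.24) and Psmb5 (0.22). With the covariate Psmc6 and Psmd14 alone stayed called. In the clock list of 15 genes 2 were higher and 2 lower, each 13.3%. The repressor Nfil3 (0.63) and the kinase Csnk1d (0.20) were higher and Nr1d2 (-0.35) and Usp2 (-0.81) lower, none of them with the covariate. In the interferon response list 2 of 45 genes were higher (4.44%), Irf1 (0.45) and the peptide transporter Tap2 (0.33), and Ubd was lower (2.22%). On the values as deposited 1 was higher and 5 lower. With the covariate neither Irf1 nor Tap2 was called, and Ifi27l2b and Dhx58 were called lower beside Ubd. No gene of 26 Nrf2 targets or of 6 class II antigen presentation genes was called. At an unadjusted p under 0.05, 4 of the 26 and 0 of the 6 passed, against 32.4% of all genes.

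Markers of liver cell types were read for a change in the mix of cells. In bulk RNA, fewer cells of a type and less RNA per cell cannot be told apart. Hepatocyte markers were lower in 3 of 12 cases, Alb, Tat and Cps1, and their summed level ranged from 4379 to 6720 in RAD001 livers and from 4864 to 8198 in vehicle livers. Kupffer cell and macrophage markers were higher in 2 of 19 cases (10.5%, against 8.27% of all genes), the integrin Itgb2 (0.49) and the Fc receptor chain Fcer1g (0.42). Itgb2 kept its call with the covariate and Fcer1g did not. The macrophage sum was 36.98 to 53.5 in RAD001 livers and 31.8 to 54.7 in vehicle livers. Of sinusoidal endothelial, stellate, B cell and erythroid markers 1 each was higher, Eng (0.44), Pdgfrb (0.28), Cd22 (0.28) and Hba1 (0.49), of 9, 9, 2 and 4 tested. With the covariate Eng kept its call, while Pdgfrb, Cd22 and Hba1 did not pass (adjusted p = 0.0867, 0.0882 and 0.12). The erythroid sum was 38.4 to 86.7 in RAD001 livers and 27.7 to 59.9 in vehicle livers. No cholangiocyte, T cell, natural killer cell or neutrophil marker was called of 4, 4, 7 and 2 tested, and no kidney marker reached the filter. The part of cell mix in the results above was not tested further.

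**Figure D5:**
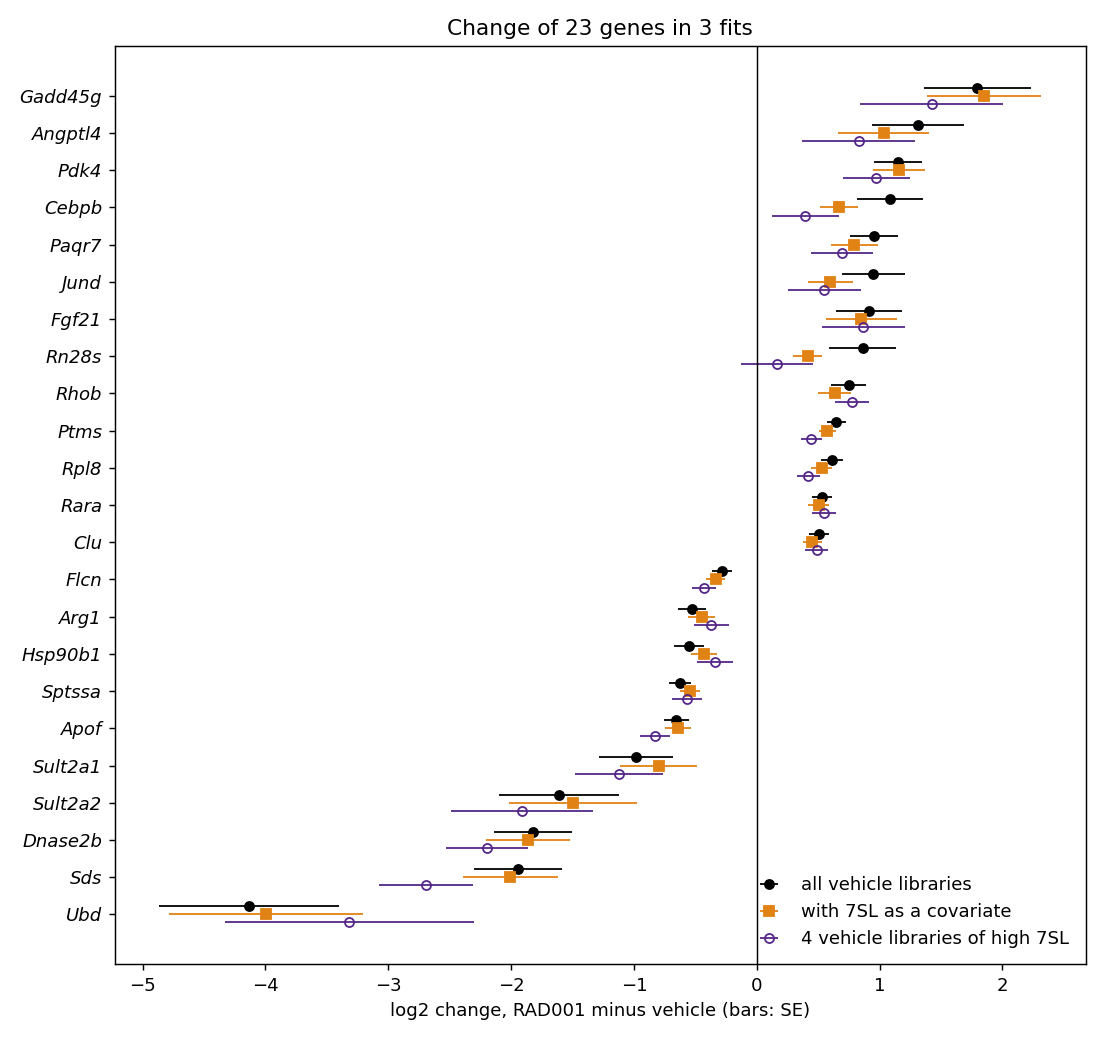
Log2 change, RAD001 minus vehicle, with its SE as bars, for 23 genes in the fit of all libraries (filled circles), with 7SL as a covariate (squares) and against the 4 vehicle libraries of high 7SL (open circles). All 23 keep their direction in the 3 fits. Against the 4 vehicle libraries of high 7SL, Sds and Dnase2b move away from 0, while Cebpb, Rn28s and Ubd are among those that move towards it.

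Finally, the 5 largest rises and 5 largest falls were set beside the change in kidney and gastrocnemius muscle of the same groups, by an interaction term in a joint fit of all 84 libraries. That fit treats the organs as independent libraries, and the labels do not say whether some come from the same rats. The genes compared were chosen by the size of their liver change in these same data, which favours a larger change in liver. The adjusted p does not allow for that choice. The log2 change of Angptl4 in kidney was -0.39, a difference from liver of 1.70 (SE 0.46, adjusted p = 0.00303). Pdk4 had 0.026 in kidney (difference 1.12, SE 0.33, adjusted p = 0.006497), and Cebpb had -0.051 (difference 1.13, adjusted p = 0.000852). Kidney means were 0.221 with vehicle and 0.148 with RAD001 for Angptl4, and 0.195 and 0.202 for Pdk4. These lie near the pseudocount of 0.1, where changes are understated. In gastrocnemius the change of Angptl4 was 0.72 and that of Pdk4 0.40, and the differences from liver did not pass (adjusted p = 0.486 and 0.154). Those of Cebpb, Gadd45g and Paqr7 did, at 1.24, 2.12 and 0.88 (adjusted p = 0.00275, 0.008199 and 0.0145). Paqr7 was also near the pseudocount in gastrocnemius, with means of 0.192 with vehicle and 0.206 with RAD001. For the Sult2a genes and Akr1b7 no comparison could be made, since both organs hold almost none of these RNAs: the highest group mean among them there was 0.0437, under the pseudocount. Ubd had log2 changes of -3.13 in kidney and -1.74 in gastrocnemius, and the differences from liver did not pass (adjusted p = 0.374 and 0.0596).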

How the data were processed

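Total RNA of each library was sequenced, and the reads were aligned with STAR 2.4.5a to rn5, per the submitters' processing notes. The deposited files hold a coverage signal per locus, which the authors had already divided by locus length and scaled by a factor per library; that factor and the tool used to count over loci are not given in the sources used here. Read totals are therefore unknown, and no counting interval is given. The step between values of short loci gave a relative depth, from 0.983 to 1.25 in RAD001 livers and from 0.904 to 1.11 in 24-month vehicle livers, where 1 is the mean over the 28 liver libraries. Table entries were 17502 loci with 16997 symbols.

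Values were rescaled between libraries by a trimmed mean of log ratios (30% trimmed on each side), a pseudocount of 0.1 was added, and loci with at least 0.1 in at least 8 of the 28 liver libraries were tested on the log2 scale with limma 3.58.1 in R 4.3.3 (1 mean per group over all 28 libraries, variance trend, Benjamini-Hochberg adjustment, threshold 0.05). Coverage of 7SL was taken from the values as deposited. Organs were compared in a joint limma fit of 84 libraries scaled within each organ. Library measures were compared by exact two-sided permutation tests. The code was tested on simulated data. Figures and tables used Python 3.11.15 with scipy 1.17.1.

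Genes named are the 10 genes that rose most and the 10 that fell most, if called and at a mean level of 1 or more, the 2 called members with the smallest p of each list with at least 3 called members, members called against their list's direction, and fixed genes of the mTOR, lipid, glucose and iron pathways. A few of these are not reported here. The other called members of the lists, the genes called against the high-7SL libraries and their neighbours in a pathway were named after their values were seen. The gene lists, the comparison and the alternatives were chosen with earlier results of these data known. Whether equal library numbers pair a RAD001 and a vehicle liver was checked by correlating their deviations from the group means, and the correlations ranged from -0.0842 to 0.292, so they were not treated as pairs. Promoter sequences came from RefSeq's GRCr8 table, matched by symbol to 6783 of the 8991 genes. Alternatives covered scaling, filter, pseudocount, libraries in the fit, the library number as a block, 7SL and odd or even number as covariates, quality weights, the threshold and each library left out in turn.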

Additional observations from a re-analysis of the deposited data

Results flagged for a closer look

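In 47 of 510 groups of values, 1 library lay far from the rest of its group by Dixon's test, and chance flags about 1 in 20 groups. RAD001 library 9 was the one most often apart, in 12 of the 24 cases among RAD001 livers. It was the highest RAD001 library for Atp5f1 (6.85), Uqcrc2 (8.28), Ndufs3 (4.18), Ndufb10 (3.55), Hspd1 (5.55), Spcs3 (5.45), Eif5 (3.57), Sult1a1 (27.6), Tpd52l1 (0.337) and Hba1 (42.6) and the lowest for Adrm1 (0.269) and Gaa (0.448). For the respiratory chain, chaperone and signal peptidase genes that fell, its level lay within the vehicle range, and without it 1590 genes were called. RAD001 library 3 was highest for Ern1 (0.884), Paqr7 (2.22), Pc (4.55) and Ulk1 (0.365), and library 7 was highest for Cyp4a8 (0.278) and lowest for Atp6v1a (0.671) and Tcea3 (0.578). Single high values were Eng in library 1 (1.35), Gltscr2 and Sds in library 6 (2.81 and 0.852), and Tat and Tp53inp1 in library 8 (13.6 and 2.79).

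Among vehicle livers library 1 was the highest for Sult2a2 (19.2), Gadd45g (1.64), Igfbp1 (4.30), Lrp1 (4.43), Pnpla7 (2.84) and Asl (18.9). Library 3 was the highest for Cyp2d1 (11.6), Cyp2d4 (0.752), Cyp3a9 (0.297) and Ptms (5.52). Library 7 was the highest for the heat shock genes Chordc1 (2.18), Dnaja1 (11.05) and Hspa8 (7.23) and for Pfkfb1 (2.37). The others were Ubd and Nos1ap in library 2 (19.8 and 0.142), Lpin2, Npm1 and Ugp2 in library 8 (2.15, 5.63 and 27.3), Ulk1 in library 6 (0.325), Bbc3 in library 10 (0.463), Itgb2 in library 5 (0.484) and the number of loci above 0 in library 5 (12408).

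The liver change differed from that of another organ by the interaction term for 5 genes. The genes compared had been chosen for their large liver change, which favours such a difference. Against kidney the difference in log2 change was 1.70 for Angptl4, 1.12 for Pdk4 and 1.13 for Cebpb. Against gastrocnemius it was 2.12 for Gadd45g, 1.24 for Cebpb and 0.88 for Paqr7. Kidney levels of Angptl4 and Pdk4 and gastrocnemius levels of Paqr7 lay near the pseudocount of 0.1, where changes are understated. The term also passed for 4 genes that kidney and gastrocnemius hardly express (group means of at most 0.0437), where it restates the change in liver: -1.61 and -1.62 for Sult2a2 against kidney and gastrocnemius, -1.01 and -1.19 for Akr1b7, -1.05 and -1.08 for Sult2a6, and -0.99 and -0.98 for Sult2a1.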

How the results depend on the processing

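All 1421 called genes kept their direction in every alternative that tested them, while the counts and the sizes of the changes moved. The alternatives reuse the same libraries, so a kept direction of genes already called adds little. Besides the 567 calls with the 7SL covariate (307 higher, 260 lower) and the 30 against the high-7SL vehicle libraries (13 and 17), 724 were called under a filter of 1 in 8 or more libraries (307 and 417). At an adjusted p under 0.01 there were 302 (167 and 135). At an adjusted p under 0.05 with a change of at least 1.5-fold there were 84 (47 and 37). Values as deposited gave 451 higher and 1107 lower. Alternatives added after seeing the data gave 129 with the covariate and only the 2 groups compared (65 and 64), 23 without the low-7SL libraries of both vehicle groups (10 and 13) and 2315 without the high-7SL vehicle libraries (1182 and 1133). Leaving out each library in turn gave 944 to 1695 calls, 501 to 883 higher and 438 to 821 lower, and without vehicle libraries 7 and 8 the lower side held 443 and 438. With the library number as a block (replicate block) 1157 genes were called, 630 higher and 527 lower, 1072 of them shared, and 2 of 8 RAD001 libraries correlated best with the vehicle library of their own number. Of 250 named genes 229 were called in the fit of all libraries. Of these 229, 200 lost their call against the high-7SL vehicle libraries, where 249 of the 250 were tested, and 112 with the 7SL covariate. The loss was 191 with the covariate and only the 2 groups compared and 211 without the low-7SL libraries of both vehicle groups. It was 37 with the block, 37 on the values as deposited and 44 without a filter. Changes that did not pass and crossed 0 were Srebf1 (-0.050 with the covariate, and -0.044 to 0.154 when each library was left out, below 0 without vehicle library 2 or RAD001 library 3), Eif4ebp1 (-0.0060 and -0.0076 without the low-7SL libraries of the aged and of both vehicle groups), Rptor (-0.00013 without those of both) and Atp5g1 (0.0094 without the high-7SL ones). With a pseudocount of 0.5 the Ubd difference between liver and gastrocnemius passed, at -1.99 (adjusted p = 0.0114). The causes were not tested. Depth is known only in relative terms, so what it limits among low genes could not be set.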

Other observations

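Promoters of genes called higher had a higher median GC content, and those of genes called lower a median near that of genes not called. Over the 300 bases around the transcription start, the median GC content was 63.3% for genes called higher (n = 579, quartiles 57.0% and 69.7%), 60.3% for genes called lower (n = 500, quartiles 54.2% and 66.3%) and 60.7% for genes not called (n = 5704, quartiles 54.3% and 67.0%). Genes are not independent replicates, and no test was made.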
